A study of Mus musculus with 3 samples.

Results

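The genes described here are 41 mouse genes known to be switched on by type I interferon, followed in B cells of the spleen. They were taken from a list of gene names and not by a threshold on the measured values. Of the 41, 39 were among the 32285 genes of the count tables, and Mx1 and Mx2 were not analysed here. The cells came from female wild-type mice of the BXD2 strain, a recombinant inbred line that develops lupus-like autoimmunity. All mice were injected with R848, a small molecule that stimulates TLR7, the dose being 40 µg for each 20 g of mouse, so no group was free of TLR7 stimulation. In the group called IL-4+R848, R848 came 2 h after IL-4 (5 µg) bound to the anti-IL-4 antibody BVD4-1D11 (25 µg), which prolongs the action of the cytokine. In the group called R848, the antibody alone was given at 25 µg. Both treatments were repeated 2 days later, and spleens were taken after a further 2 days from 3 mice per treatment. B cells were purified by negative selection, marked by a hashtag antibody for their treatment, mixed across treatments and sequenced as 3 single-cell 5' libraries, called sets 1 to 3. Whether a set corresponds to a single mouse of each treatment is not given in the labels, and p-values therefore reflect the spread between sets, which may be technical.

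Type I interferons bind a receptor carried by nearly all cells, whose kinases JAK1 and TYK2 activate the transcription factor STAT2. STAT2 acts with IRF9 in a complex that binds a short DNA element, the interferon-stimulated response element (ISRE), in front of its target genes. The products of those genes degrade viral RNA, block translation of viral messages, sense foreign nucleic acid or, as with USP18 and SOCS1, turn the pathway down again. In lupus this programme is often raised in blood and spleen, and TLR7 in plasmacytoid dendritic cells and B cells is one of the sensors that can start it.

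The 39 members in the tables lie on 16 chromosomes in the mouse genome (GRCm38), and part of them are clustered. The 5 OAS genes lie on chromosome 5 and the 4 IFIT genes on chromosome 19, and on chromosome 1 lie Sp100 and the 4 genes of the Ifi200 family (Ifi203, Ifi206, Ifi209 and Ifi213). Reads of Ifit3 and Ifit3b, of Oas1a, of the Ifi200 family and of Trim30a can be split between near-identical copies, so their counts are uncertain. RefSeq promoter sequence (GRCm38.p6, the 250 bases before each start) was at hand for 30 of the 41 members. It was searched on both strands for an ISRE core, taken as the letters GAAA, any 2 bases and GAAA again. The core was found for 13 of the 30 (43.3%), compared with 936 of 27025 genes with a promoter in the same table (3.46%), or 978 of 32851 windows (2.98%). The 5 promoters below are shown because the results below turn on their genes: a pair from the genes that define interferon-high cells, a pair from those that rose in antibody-secreting cells (Bst2 and Isg20) and Samd9l, a gene that fell there. Capitals mark ISRE cores, including overlapping ones, and all sequences run 5′ to 3′ along the strand of the gene.
Isg15, chr4:156200819-156201068, minus strand: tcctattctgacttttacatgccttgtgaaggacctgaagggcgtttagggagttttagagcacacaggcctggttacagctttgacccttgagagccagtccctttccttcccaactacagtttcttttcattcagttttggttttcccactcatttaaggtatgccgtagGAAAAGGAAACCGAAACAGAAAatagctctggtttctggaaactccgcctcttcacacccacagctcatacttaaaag
Ifit3, chr19:34583279-34583528, plus strand: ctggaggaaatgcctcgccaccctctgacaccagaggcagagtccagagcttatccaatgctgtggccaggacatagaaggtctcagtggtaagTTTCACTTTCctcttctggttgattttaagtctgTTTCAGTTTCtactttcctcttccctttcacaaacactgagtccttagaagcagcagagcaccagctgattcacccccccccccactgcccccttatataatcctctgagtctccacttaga
Bst2, chr8:71537473-71537722, minus strand: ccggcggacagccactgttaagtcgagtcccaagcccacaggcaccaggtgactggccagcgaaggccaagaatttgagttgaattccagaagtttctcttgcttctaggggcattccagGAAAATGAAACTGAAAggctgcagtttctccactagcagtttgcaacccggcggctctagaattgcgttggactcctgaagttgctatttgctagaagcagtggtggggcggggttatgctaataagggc
Isg20, chr7:78913174-78913423, plus strand: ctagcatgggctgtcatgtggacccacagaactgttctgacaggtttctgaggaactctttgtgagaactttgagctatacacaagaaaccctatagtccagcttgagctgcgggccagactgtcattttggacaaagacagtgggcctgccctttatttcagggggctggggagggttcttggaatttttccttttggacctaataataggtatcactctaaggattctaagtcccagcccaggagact
Samd9l, chr6:3399572-3399821, minus strand: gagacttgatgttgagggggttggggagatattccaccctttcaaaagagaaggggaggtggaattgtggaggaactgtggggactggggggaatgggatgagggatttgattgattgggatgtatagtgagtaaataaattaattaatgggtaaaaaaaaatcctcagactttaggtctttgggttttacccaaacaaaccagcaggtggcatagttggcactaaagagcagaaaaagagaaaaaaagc
The Isg15 window held 3 overlapping cores, of which the farthest from the start lay 78 to 69 bases before it and the nearest 66 to 57. The Ifit3 window held 2 separate cores, 156 to 147 and 122 to 113 bases before the start. The Bst2 window held 2 overlapping cores, 130 to 121 and 124 to 115 bases before it. No core was found in the Isg20 window shown, in the other windows of Isg20 or in the Samd9l window, which says only that these letters were not in those 250 bases.

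The 3 sets held 14519, 11389 and 14222 barcodes with 107244246, 96866964 and 99522280 gene UMIs (unique molecular identifiers, each a counted RNA molecule). A total of 35116 cells carried 1 hashtag and passed quality filters. R848 cells numbered 7154, 5643 and 7533 in sets 1 to 3, with medians of 4447 to 5932 UMIs per cell, and IL-4+R848 cells 5125, 4580 and 5081, with medians of 5199 to 6994.5. Cells were grouped by RNA into states named after marker genes, from clusters drawn without the members: follicular-like (18671 cells), plasmablast-like (3008), transitional-like (2901), activated-like (2398), marginal zone-like (1990), germinal center-like (1741) and cycling-like (785). They were also grouped by surface antibody alone, which uses no RNA. The IgD gate (at least 100 UMIs of anti-IgD and under 50 of anti-CD138) holds naive cells, and the CD138 gate (at least 100 of anti-CD138 and under 100 of anti-IgD) holds antibody-secreting cells.

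The members differed widely in level in the naive B cells of R848-treated mice. Levels by state are given as CPM, a gene's UMIs in the summed cells scaled to their total and adjusted by edgeR's TMM factors, which were set over the sums of all states together. Ly6e, a surface protein anchored by glycolipid, stood at 2619, 2452 and 2845 CPM in sets 1 to 3. Its neighbour on the chromosome, Ly6a (Sca-1), stood at 429, 441 and 705 CPM, with set 3 the highest. Ifi27l2a, a small protein of interferon-treated cells, had 376, 388 and 531 CPM, again highest in set 3. Sp100 and Pml, which build the nuclear bodies that hold down incoming viral genomes, had means of 300.2 ± 12.8 and 137 ± 4.22 CPM (SD, n = 3 sets). At the other end, the mean was 0.984 ± 0.266 CPM for the RNA sensor gene Ifih1 (MDA5), 0.856 ± 0.918 for Ifi44 and 0.659 ± 0.131 for Ifit1. Ifit3b (0.454 ± 0.203) and the antiviral enzyme Rsad2 (viperin, 0.449 ± 0.109) were lowest. These low members had between 19 and 42 UMIs in 8427 R848 follicular-like cells, so their levels rest on few molecules.

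Across states of R848-treated mice, germinal center-like cells had the lowest mean of the 7 states for 22 of the 39 members and the highest for none, beside 17.9% and 20.6% of the 12512 genes with at least as many UMIs as the lowest member (82). Scaled by library totals alone, they were lowest for 12 members and 9.58% of genes, and plasmablast-like cells were lowest for 19 members and 58.5% of genes. Under either scaling most members were lower in germinal center-like than in follicular-like cells: 37 of 39 with TMM (49.9% of genes) and 36 of 39 with totals (46.3% of genes). Pml had 5.51, 10.1 and 7.26 CPM in germinal center-like cells and 139.8, 138 and 132 CPM in follicular-like cells. Ifi203 had 2.40, 4.42 and 3.46 CPM in germinal center-like cells and 34.9, 38.8 and 42.7 CPM in follicular-like cells. Ddx58 (RIG-I), a sensor of viral RNA ends, had 4.79, 5.35 and 5.36 CPM in the former and 37.7, 38.5 and 40.8 CPM in the latter. In none of these 3 genes did the sets of the 2 states overlap. Rtp4, which binds replicating flavivirus RNA, had a mean of 0.233 ± 0.113 CPM in germinal center-like cells, from 5 UMIs, and 6.29 ± 1.36 CPM in follicular-like cells. Irf7 did not share this pattern, with 18.4 ± 1.96 CPM in germinal center-like and 14.4 ± 0.456 CPM in follicular-like cells. Among the other states, marginal zone-like and transitional-like cells had the highest mean for 9 members each, plasmablast-like and follicular-like cells for 7 each. In the same order, these states were highest for 15.6%, 13%, 26.2% and 7.78% of genes. With totals alone the counts were 9, 13, 6 and 5 of the 39 members, beside 15.3%, 28.5%, 10.4% and 4.19% of genes. Marginal zone-like cells led for Ly6a among the naive states (817 ± 137 CPM), whereas transitional-like cells had 85.3, 75.6 and 103 CPM of it. Transitional-like cells led for Ddx58 (62.2 ± 2.47 CPM), Samd9l (84.6 ± 14.4 CPM) and Cmpk2, a mitochondrial nucleotide kinase (16.3 ± 2.60 CPM). States were made from the RNA of the same cells, so these levels are a description without a test.

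**Figure D1:**
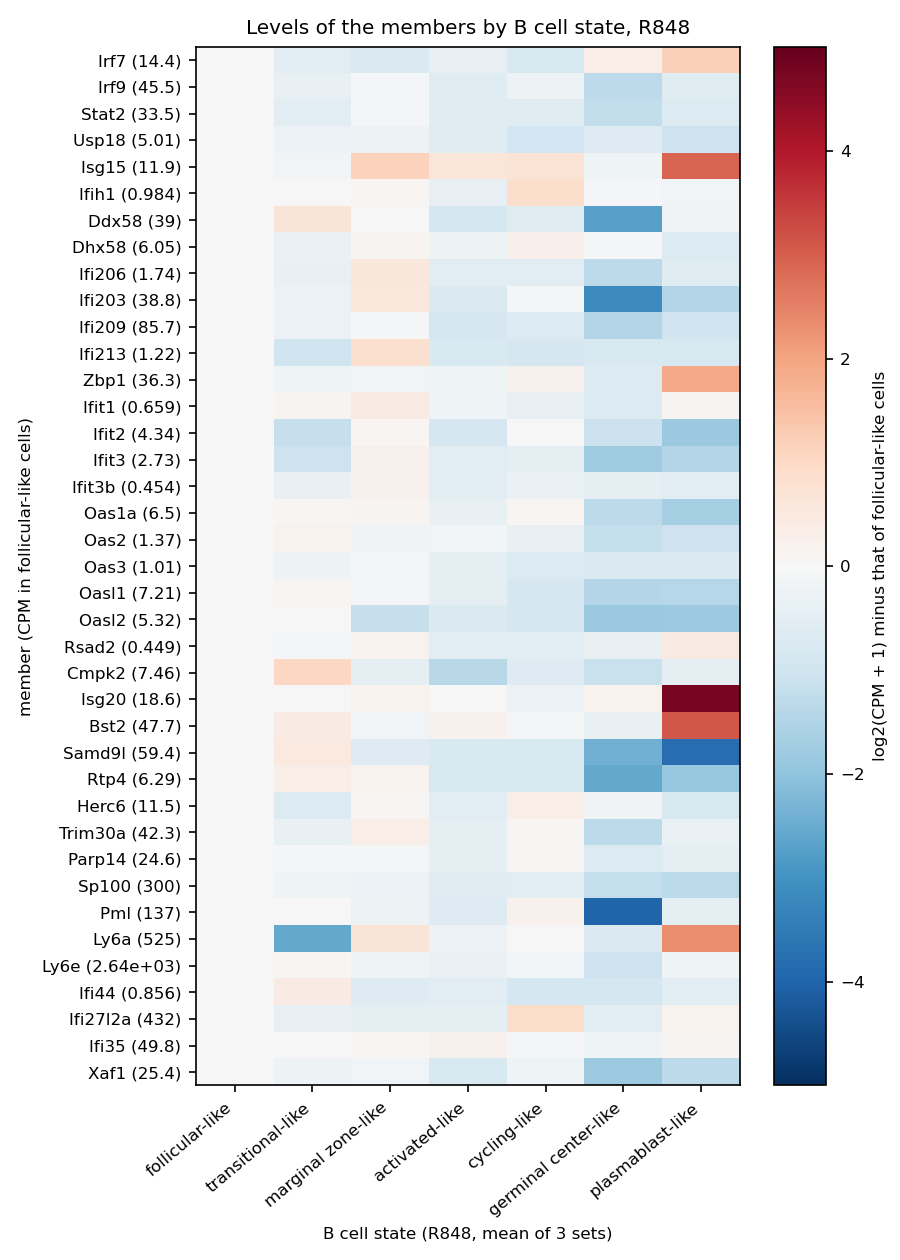
Difference of each member's level from follicular-like cells on the log2(CPM + 1) scale with TMM-scaled CPM (color), for 7 B cell states of R848-treated mice (columns, mean of 3 sets) and 39 members (rows, with the CPM of follicular-like cells in parentheses). The germinal center-like column is blue for most members, most of all for Pml and Ifi203, and the plasmablast-like column holds both the strongest red, Isg20, and a strong blue, Samd9l.

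A surface gate that uses no RNA gave the same direction for germinal center cells. Cells with at least 100 UMIs of the antibody GL7, which marks germinal center B cells, under 100 of anti-IgD and under 50 of anti-CD138 numbered 1440 with R848 and 1055 with IL-4+R848. Of these, 62.7% and 27.7% were germinal center-like by RNA, and their median depths were 10515.5 and 8306 UMIs. With R848, 34 of 39 members had a lower CPM in the GL7 gate than in the IgD gate in all 3 sets, only Irf7 was higher in all 3, and the other 4 were mixed. Here CPM are scaled to the total UMIs of the cells, without TMM factors. The median ratio of levels was 0.481. Over the same 12512 genes 34.4% were lower in all 3 sets and 41.8% higher, with a median ratio of 1.05. The Pml mean was 33.9 CPM against 130 CPM in the IgD gate, Ddx58 10.4 against 37.7 CPM and Samd9l 15.3 against 55.4 CPM. With IL-4+R848, 26 members were lower in all 3 sets, Ifi27l2a and Ly6a were higher, 11 were mixed, and the median ratio was 0.668, beside 22.7% of all genes lower, 43.4% higher and a median ratio of 1.13. No test was made of these differences.

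Antibody-secreting cells held a sharply divided set of members. Between the CD138 gate (1451 cells with R848, 552 with IL-4+R848) and the IgD gate (11264 and 9496 cells), 6 of the 35 members tested with R848 were higher in the CD138 gate and 24 were lower. Among all genes tested, 33.8% were higher and 36.4% lower, so the members' share of higher calls was below and that of lower calls above the background. With IL-4+R848, 7 of 32 tested members were higher and 23 lower, beside 30.1% and 33.2% of all genes. The test was edgeR's quasi-likelihood test on summed counts with the set as a block, at a Benjamini-Hochberg adjusted p under 0.05, and CPM in this and later tests are scaled by edgeR's TMM factors. The median log2 fold change of the members was -0.87 with R848 and -0.93 with IL-4+R848, against -0.07 and -0.12 over all genes. Of the members called in both treatments, 27 in all, every one had the same direction, 6 higher and 21 lower. The share of all genes called in both with the same direction is not given here. This count is therefore not read as a result about the members.

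The nuclease gene Isg20, which degrades single-stranded RNA, showed the largest rise. With R848 it had 14.6, 17.9 and 14.8 CPM in the IgD gate and 419, 449 and 441 CPM in the CD138 gate, a log2 fold change of 4.79 ± 0.12 (SE; edgeR, Benjamini-Hochberg adjusted p = 5.74e-06). With IL-4+R848 it went from 18.0, 18.4 and 16.8 CPM to 462, 411 and 424 CPM. Every CD138 sum lay far above every IgD sum of its treatment. Bst2 (tetherin), which holds budding virus at the cell membrane, had 34.2, 36.3 and 45.8 CPM in the IgD gate with R848 and 317, 349 and 426 CPM in the CD138 gate (log2 fold change 3.23 ± 0.10). Ly6a had 329, 322 and 530 CPM in the IgD gate with R848 and 1871, 1839 and 2353 CPM in the CD138 gate. With IL-4+R848, Ly6a had 233, 214 and 226 CPM against 2661, 2925 and 2906 CPM. The sets of the 2 gates did not overlap for either gene. Zbp1, a sensor of Z-form nucleic acid that can trigger necroptosis, rose by 2.08 on the log2 scale with R848 and by 1.79 with IL-4+R848. Irf7, the factor that drives interferon transcription in plasmacytoid dendritic cells, had 9.20, 9.93 and 10.1 CPM with R848 in the IgD gate and 27.7, 23.8 and 20.6 CPM in the CD138 gate. Its log2 fold change was 1.30 with R848 and 0.62 with IL-4+R848, and in the latter it was -0.06 when counts were scaled by library totals alone.

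Isg15, a ubiquitin-like protein that is joined to other proteins, also rose, but from few cells. With R848 it had 11.1, 11.3 and 12.9 CPM in the IgD gate and 40.9, 133 and 56.9 CPM in the CD138 gate (log2 fold change 2.55 ± 0.33; edgeR, Benjamini-Hochberg adjusted p = 0.0011). In set 2, the 5 cells with the most Isg15 held 73.5% of its 751 UMIs in the gate, and a single cell held 198. In sets 1 and 3 the 5 highest cells held 32.0% of 269 and 53.8% of 474 UMIs. Set 3 had a cell with 123 Isg15 UMIs, yet none of its CD138 cells met the rule for interferon-high cells given below. Over the 3 sets, 2 of the 1451 CD138 cells with R848 met it. With IL-4+R848 the CD138 gate had 69.0, 19.5 and 18.1 CPM against 10.5, 10.9 and 11.1 CPM in the IgD gate, and in set 1 the 5 highest cells held 63.9% of 324 UMIs. The log2 fold change with IL-4+R848 was 1.72, and without set 1 it was 0.79. An Isg15 UMI was seen in 18.2 ± 3.24% of CD138 cells and 7.44 ± 0.852% of IgD cells with R848, at median depths of 18600 and 4756.5 UMIs. No cell type here is known to lack the members, so the share of cells with a UMI that free RNA gives was not measured.

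The members that fell in the CD138 gate with R848 included Ifit2, Ifit3, the 5 OAS genes and the RNA sensor genes Ddx58 and Dhx58. Samd9l, which restricts poxvirus translation and slows cell growth, had 35.9, 38.6 and 49.1 CPM in the IgD gate with R848 and 0.913, 1.60 and 1.44 CPM in the CD138 gate. Its log2 fold change was -4.99 ± 0.14 (edgeR, Benjamini-Hochberg adjusted p = 6.61e-06), and -5.10 with IL-4+R848. Sp100 had 194, 199 and 223 CPM with R848 against 81.3, 73.6 and 74.7 CPM, without overlap. For several members almost no molecules were left in the CD138 gate. Ifit3 had 145 UMIs in the IgD gate with R848 and 1 in the CD138 gate, a ratio of levels of 0.0288 (95% interval 0.000725 to 0.163, from counting error only, as for all intervals here). With IL-4+R848, Ifit2 and Ifit3 had 0 UMIs in the CD138 gate. They were at least 8.84-fold and at least 8.37-fold lower than in the IgD gate, taking 3 counts over the group for 0. Oas2 with R848 had 1 UMI against 86, a ratio of 0.0486 (0.00122 to 0.278). Rtp4 with IL-4+R848 had 3 against 355, a ratio of 0.0787 (0.0162 to 0.232). The other fallers ranged with R848 from Oasl2 (-3.26 on the log2 scale), Oas1a (-2.74) and Ifit2 (-2.37) to Pml (-0.40), Ly6e (-0.25) and Ddx58 (-0.23). The signal factors Stat2 and Irf9 fell by 0.70 and 0.57, and the feedback protease gene Usp18 fell by 1.33 with R848. With IL-4+R848, Usp18 did not pass the test (0.23). Of the members tested with R848, Ifi206, Ifih1, Cmpk2, Ifi27l2a and Ifi35 did not pass. Ifit1, Ifit3b, Rsad2 and Ifi44 had too few counts to be tested with R848, and with IL-4+R848 Ifit3b, Rsad2, Oas2, Ifi44, Ifi206, Ifi213 and Ifih1 had.

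Cells of the 2 gates differed in depth and content. Of the CD138 gate, 96.6% with R848 were plasmablast-like, with 42.6% of UMIs from immunoglobulin genes against 1.83% in the IgD gate. Scaling by library totals moved the median of all genes to -0.93 with R848 and -0.79 with IL-4+R848 on the log2 scale, so the changes above are relative to the typical gene and not per cell. Counted per cell, 12 of the 24 R848 fallers had fewer UMIs per cell in the CD138 gate in all 3 sets, Samd9l, Sp100, Ifit2, Ifit3 and the 5 OAS genes among them. A further 7 had more UMIs per cell there in all 3 sets (Ddx58, Trim30a, Pml, Stat2, Irf9, Ly6e and Parp14). All members called higher were also higher per cell. CD138 cells were deeper, with a median of 18600 against 4756.5 UMIs with R848, so counts per cell tend to be higher there for any gene. The share of all genes per cell is not given here, and these per-cell counts are a description only. In summed counts, fewer cells with a gene and less of its RNA per cell cannot be told apart. The plasmacytoid dendritic cell gene Siglech had no UMI in either gate, and the T cell gene Cd8a had none in the CD138 gate. Of CD138 cells with R848, 29.6% had a UMI of the T cell list, 84.3% of these UMIs from Cd28, which plasma cells also carry, and the summed list ranged from 30.8 to 40.5 CPM over sets against 1.92 to 2.38 CPM in the IgD gate. Of the 6 members higher with R848, Bst2 and Isg15 had an ISRE core in their promoter window, Irf7 and Isg20 had none and the other 2 had no promoter entry. Of the 24 lower, 7 had the core and 11 did not.

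**Figure D2:**
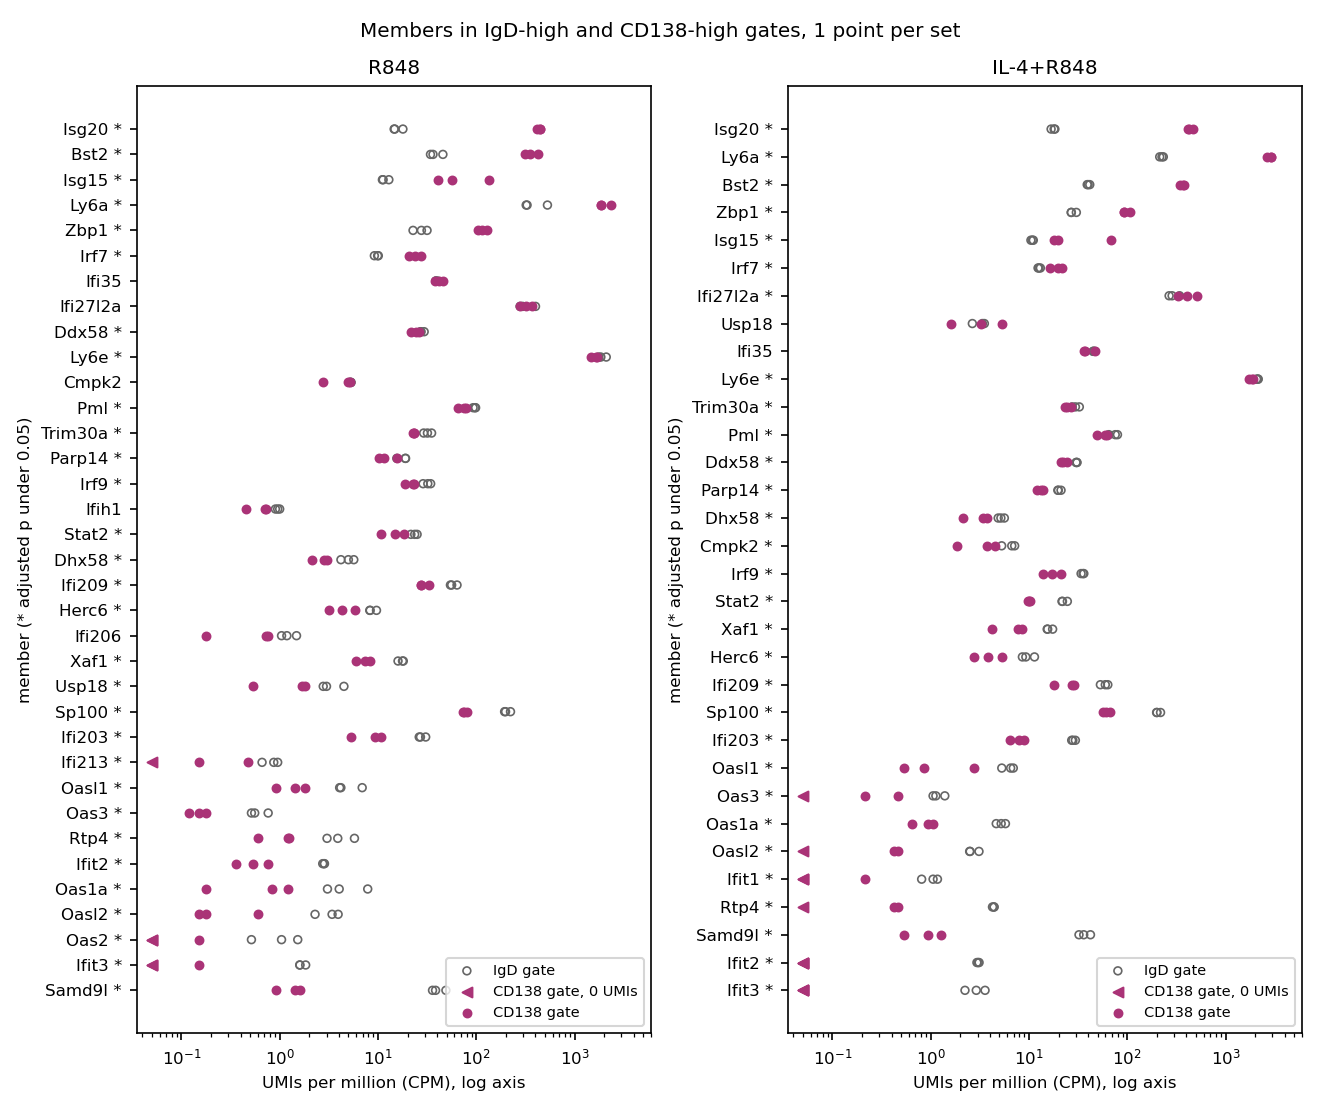
Level of each tested member (CPM, log axis, 1 point per set) in the IgD gate (open circles) and the CD138 gate (filled circles, with 0 UMIs as triangles at the left edge), for R848 (left) and IL-4+R848 (right), ordered by fold change. At the top, Isg20 and Bst2 lie about a decade or more to the right in the CD138 gate, and at the bottom Samd9l in R848 goes from 35.9 to 49.1 CPM down to 0.913 to 1.60 CPM.

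Among the related pathway genes, more fell than rose in the CD138 gate. Over all genes, as above, 33.8% rose and 36.4% fell with R848, and 30.1% rose and 33.2% fell with IL-4+R848. Of 16 tested interferon, receptor and signalling genes, 1 rose and 10 fell with R848, and 1 rose and 8 fell with IL-4+R848. Of the genes that sense nucleic acid and induce interferon, 3 rose and 15 fell of 21 with R848, and 3 rose and 12 fell of 20 with IL-4+R848. Of 61 other interferon-stimulated genes, 8 rose and 41 fell with R848, and 9 rose and 41 fell with IL-4+R848.

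Over single cells, the members were not spread evenly. Of 35116 cells, 30806 had no UMI of Ifit1, Ifit2, Ifit3, Isg15, Rsad2 or Usp18, 3947 had UMIs of 1 of them and 272 of 2. A total of 91 cells, or 0.259% (exact 95% interval 0.209 to 0.318%), had UMIs of at least 3 and are called interferon-high. The interval pools the cells of all sets and treatments and covers counting error only, not the spread between sets. By set and treatment the share ran from 0.168 to 0.351%. Among the 91 cells, 45 had 3 of the genes, 19 had 4, 19 had 5 and 8 had all 6. The interferon-high cells held 55.7% of all Ifit3 UMIs, 50.8% of those of Ifit1, 48.9% of Rsad2, 21.3% of Usp18, 14.8% of Ifit2 and 10.0% of Isg15. A gene of the rule is raised in such cells by the way they were chosen. The 33 members outside the rule were not used to choose the cells, but deeper cells meet the rule more easily, and the median depth was 6510 UMIs in interferon-high cells and 5536 in the others. In CPM scaled to total UMIs, 32 of these 33 were higher in interferon-high cells than in other cells in all 3 sets, with a median ratio of 7.10. Of the 12512 genes, 8.43% were higher in all 3 sets, and their median ratio was 0.920. Ifi44 was the exception, with 0 in the interferon-high cells of set 1. Ifit3b had 131, 27.4 and 69.2 CPM in interferon-high cells against 0.0861, 0.0595 and 0.167 CPM in the others, with reads shared with Ifit3 as above. Rtp4 had 165, 113 and 146 CPM against 3.20, 3.92 and 4.32 CPM. Irf7 had 262, 170 and 273 CPM against 15.9, 15.6 and 14.4 CPM. Ly6e was nearly level, with 2991, 2282 and 2797 CPM against 2231, 2266 and 2292 CPM.

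The share of cells with a UMI varied widely between members. A UMI of Rsad2 was found in 0.236% of cells, of Ifit1 in 0.373%, of Ifit3 in 0.763%, of Irf7 in 9.20%, of Ddx58 in 19.3%, of Pml in 40.9%, of Sp100 in 69.0% and of Ly6e in 99.1%. Isg15 was found in 8.48% of cells, 90.1% of the interferon-high cells among them being positive, and reached 198 UMIs in a cell. Follicular-like cells held 56 of the 91 interferon-high cells (61.5%), at a share of 0.300% of their number. Marginal zone-like cells held 10 (0.503%), cycling-like cells 6 (0.764%), activated-like and plasmablast-like cells 5 each, and transitional-like cells 2, the rest being in other or unnamed cells. None of 1741 germinal center-like cells was interferon-high, which allows a share of up to 0.172% if 3 cells are taken for 0. That limit pools the cells of all sets and treatments. It covers counting error in cells with UMIs of these genes, and neither the spread between sets nor cells whose RNA of them was missed. The median depths of the germinal center-like cells were high, from 12416 to 17603 UMIs over sets and treatments. A UMI of the 8 T cell markers was found in 7.69% of interferon-high cells and 3.55% of other cells, with summed levels of 0 to 215 CPM and 9.59 to 22.9 CPM over sets, and the part of T cells in the result was not tested. A UMI of the 9 monocyte or macrophage markers was found in 13.2% and 7.11%, with summed levels of 15.2 to 19.4 CPM and 28.7 to 46.8 CPM. In the interferon-high cells Lyz2, Csf1r, C1qa, C1qb and Fcgr1 were at 0 and the other 4 had UMIs. A UMI of the 6 plasmacytoid dendritic cell markers was found in 13.2% and 11.2%, with summed levels of 9.69 to 47.3 CPM and 19.3 to 26.5 CPM. Of these, Klk1 and Smim5 were at 0 in the interferon-high cells and 4 had UMIs. The part of both cell types was not tested.

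The share of interferon-high cells was not shown to differ between treatments. It was 0.168, 0.248 and 0.252% with R848 and 0.351, 0.240 and 0.335% with IL-4+R848 in sets 1 to 3, so the groups overlapped (exact permutation test, two-sided p = 0.3). IL-4+R848 cells were deeper, so each cell was also thinned to 2000 UMIs. The share was then 0.066 ± 0.026% with R848 (13 of 19050 cells) and 0.134 ± 0.037% with IL-4+R848 (19 of 13972 cells). The thinned values did not overlap (exact permutation p = 0.1), and 0.10 is the smallest p that 3 sets against 3 can give. Thinned to 3000 UMIs, the shares were 0.108 ± 0.041% and 0.216 ± 0.084% (exact permutation p = 0.3). Within single states the lowest Benjamini-Hochberg adjusted p of the exact permutation test was 0.933.

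**Figure D3:**
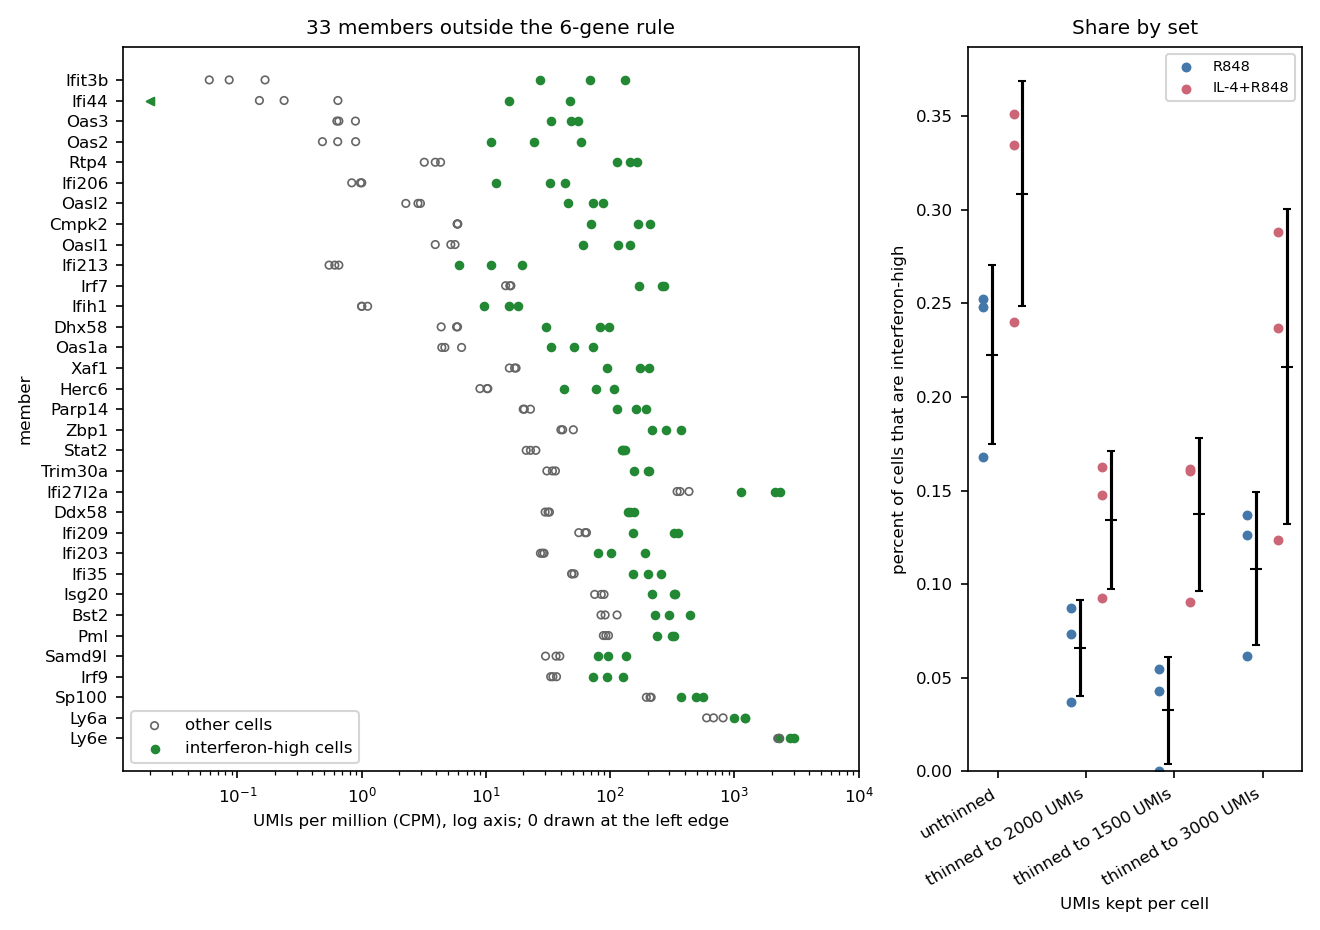
Left, level of the 33 members outside the 6-gene rule (CPM, log axis, 1 point per set) in interferon-high cells (green) and other cells (open circles), ordered by ratio. Right, percent of cells that were interferon-high by set for R848 (blue) and IL-4+R848 (red) with mean and SD, without thinning and at 3 thinned depths. Members at the top are shifted by more than a decade and Ly6e at the bottom hardly at all, and the treatments are apart at 2000 and 1500 UMIs only.

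Outside the members and pathway lists, and among genes with at least 20 UMIs in the interferon-high cells of every set, those with the largest ratios in interferon-high against other follicular-like cells were Irgm1 and Ifi47, both interferon-induced GTPases that act on vacuoles of parasites and bacteria. Irgm1 had 343 ± 69.1 CPM against 33.8 ± 2.96 CPM (ratio 10.1), and Ifi47 had a ratio of 6.93. The next were Ms4a4c (2.61), Cybb (2.43), Pkib (2.23), Tspo (2.19), Smchd1 (2.12), Rnf114 (1.98), the light chain gene Iglv1 (1.84) and H2-T22 (1.80). They are given as a description with no test.

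A small cluster of 355 follicular-like cells carried many members. It was drawn without the members but then picked as the cluster with the most members among its 10 leading genes, with 4. The members, and with them the share of interferon-high cells, are therefore raised in it in part by that choice. The counts below describe the cluster and are not separate support for it. The 10 genes outside the lists with the largest ratios in it against other follicular-like cells were Iigp1 (47.1), Serpina3f (25.3), Tgtp2 (15.3), Gbp6 (14), Igtp (11.2), Gbp7 (9.99), Serpina3g (9.08), Irgm1 (8.93), Gbp4 (8.07) and Gbp2 (6.77). Most of these are GTPases of the immunity-related and guanylate-binding families, well known as targets of interferon gamma. Of the 80 pathway genes with enough UMIs in the cluster, a filter that favours raised genes, 57 were higher in all 3 sets. The largest ratios were those of Trim30c (8.15), Ifitm3 (8.06), Ifit1bl1 (7.67), Ifi208 (7.01) and Lgals3bp (6.15). Socs1 (5.83) and Irf1 (4.34) came next. The part of interferon gamma was not tested. Of the 39 members, 35 were higher in the cluster in all 3 sets, with a median ratio of 3.29, and Ly6e, Oas1a, Ifih1 and Ifi44 were not. Interferon-high cells made up 18 of the 355 cells (5.07%), against 38 of the 18316 other follicular-like cells (0.207%), although the cluster was shallower, with a median of 4198 against 5204 UMIs. Without the interferon-high cells, 337 cells remained, 27 members were higher in all 3 sets, and the median ratio was 2.06. In those remaining cells Rtp4 was at 26.4 CPM against 5.11 CPM, Usp18 at 16.8 against 2.98 CPM and Irf7 at 40.7 against 13.8 CPM. The only member lower there in all 3 sets was Ifit1, with 0 against 0.449 CPM. Oas1a had a mean of 5.98 against 6.89 CPM. Over the 12512 genes, 13.7% were higher in the whole cluster in all 3 sets (median ratio 0.987), and 13.5% without the interferon-high cells (0.994). IL-4+R848 cells made up 20.8% of the cluster and 55.5% of the other follicular-like cells, so the members were also compared within each treatment. With R848 (281 cells of the cluster) 29 of 39 were higher in all 3 sets, with a median ratio of 2.33, beside 11.2% of all genes. With IL-4+R848 (74 cells) 31 were higher, with a median ratio of 4.57, beside 7.47% of all genes. A cluster is drawn from the RNA of its own cells, so none of this was tested.

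The effect of IL-4 was compared in the IgD gate, which no RNA defines, by edgeR's quasi-likelihood test on summed counts without a block. Ifit3b and Ifi44 had too few counts, and of the 37 tested members 6 rose and 3 fell with IL-4+R848 against R848 at a Benjamini-Hochberg adjusted p under 0.05. Among all genes 6.73% rose and 5.44% fell, and the median log2 fold change was 0.11 for the members and -0.00 for all genes. Without set 1, 2 members passed the test, without set 2 none and without set 3, 7, so these calls rest on having all sets. With the stricter threshold of 200 UMIs, 4 rose and 3 fell, and Ifit1 and Ifit3 no longer passed.

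The members that rose were mostly antiviral effectors at low level. Rsad2 had 0.248, 0.490 and 0.244 CPM with R848 and 1.06, 1.21 and 0.632 CPM with IL-4+R848 (log2 fold change 1.57 ± 0.38; edgeR, Benjamini-Hochberg adjusted p = 0.0249). Ifit1, which binds viral RNA without a methylated cap, had 0.660, 0.535 and 0.635 CPM with R848 and 1.40, 1.08 and 1.55 CPM with IL-4+R848 (1.12 ± 0.26). Ifit3 had 2.35, 2.05 and 2.05 CPM with R848 and 4.74, 2.98 and 3.85 CPM with IL-4+R848 (0.83 ± 0.20). In these genes no set of one treatment reached a set of the other. Oas3, which makes the messenger that activates RNase L, had 0.660, 0.713 and 0.977 CPM with R848 and 1.40, 1.86 and 1.49 CPM with IL-4+R848 (1.03 ± 0.25). Irf7 had 11.8, 12.7 and 12.9 CPM with R848 and 17.3, 16.9 and 16.4 CPM with IL-4+R848 (0.44 ± 0.08). Ifi35, a leucine zipper protein, had 49.5, 49.8 and 51.8 CPM with R848 and 61.9, 60.3 and 59.6 CPM with IL-4+R848 (0.27 ± 0.05). Here too the treatments did not overlap. Part of the signal of the low members lay in a few cells: interferon-high cells were 30 of 11264 with R848 and 39 of 9496 with IL-4+R848. They held 5 of 22 Rsad2 UMIs with R848 (22.7%) and 51 of 61 with IL-4+R848 (83.6%). For Ifit3 they held 57 of 145 (39.3%) and 176 of 234 (75.2%), and for Ifit1 15 of 41 and 52 of 81. Rsad2, Ifit1 and Ifit3 belong to the rule that chose these cells, so a high share there is built in. For Oas3, which is outside the rule, the shares were 11.5% with R848 and 22.4% with IL-4+R848. For Irf7 these shares were 5.28% and 8.13%, and for Ifi35 1.10% and 1.83%. An Ifit3 UMI was found in 0.90% of the gate's cells with R848 and 0.84% with IL-4+R848. For Ifit1 this was 0.31% and 0.55%, and for Rsad2 0.16% and 0.26%, at median depths of 4756.5 and 6135.5 UMIs. Whether these 3 genes rose outside the interferon-high cells was not tested.

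The members that fell were Ifi213, Ly6a and Pml. Ly6a had 420, 412 and 678 CPM with R848 and 308, 286 and 299 CPM with IL-4+R848 (log2 fold change -0.76 ± 0.16; edgeR, Benjamini-Hochberg adjusted p = 0.0150). Pml had 124, 126 and 119 CPM with R848 and 105, 86.8 and 99.9 CPM with IL-4+R848 (-0.34 ± 0.07). Ifi213, of the DNA-sensing Ifi200 family, had 1.11, 0.846 and 1.22 CPM with R848 and 0.387, 0.519 and 0.460 CPM with IL-4+R848 (-1.20 ± 0.28). All 3 genes were lower with IL-4+R848 in every set. The make-up of the gate moved with treatment: with R848 60.4% of its cells were follicular-like, 15% activated-like, 8.93% marginal zone-like and 8.39% transitional-like. With IL-4+R848 these were 87.2%, 2.87%, 1.96% and 0.990%, and their part in the calls above was not tested within the gate. The summed level of the 8 NK cell markers, all with UMIs, lay between 1.56 and 24.9 CPM in the sets with R848 and between 10.6 and 73.2 CPM with IL-4+R848, and its part was not tested.

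Within follicular-like cells, 1 member rose and 5 fell of 38 tested (all but Ifi44), beside 8.11% and 7.65% of all genes, with a median log2 fold change of 0.04 for the members and -0.00 for all genes. Ifi213, Ifi35, Ly6a and Pml passed the test both here and in the IgD gate, whose cells are largely follicular-like. Ly6a had 422, 437 and 700 CPM with R848 and 289, 277 and 272 CPM with IL-4+R848 (-0.89 ± 0.16; edgeR, Benjamini-Hochberg adjusted p = 0.00313). Pml had 137, 137 and 131 CPM with R848 and 104, 82.7 and 95.9 CPM with IL-4+R848 (-0.52 ± 0.08). Ifi35 had 46.9, 47.5 and 53.3 CPM with R848 and 60.8, 59.8 and 61.0 CPM with IL-4+R848 (0.30 ± 0.06). No sets of the 2 treatments overlapped for these genes. Ifi213 fell by 1.64 and Ifi206 fell by 0.92 on the log2 scale. Xaf1, a pro-apoptotic partner of XIAP, fell by 0.30 (edgeR, Benjamini-Hochberg adjusted p = 0.0420), and over all assigned cells its value was 0.18. The members that rose only in the gate did not pass here: Ifit3 had 2.53, 2.71 and 2.88 CPM with R848 and 4.57, 1.79 and 4.23 CPM with IL-4+R848. Ifit3 in set 2 was thus lower with IL-4+R848, and its adjusted p was 0.499 in the edgeR test with Benjamini-Hochberg adjustment. Irf7 had 13.7, 14.5 and 14.6 CPM with R848 and 16.6, 15.9 and 15.5 CPM with IL-4+R848, which did not overlap, with an edgeR Benjamini-Hochberg adjusted p of 0.206. With the set as a block, 2 members rose and 8 fell, and without set 2, 3 passed in all. The treatments take up different clusters within the state: 3 of its clusters hold 95.4, 99.7 and 97.1% IL-4+R848 cells. In the same order, 3, 3 and 4 of the 7 follicular markers were raised in them. The state's other clusters hold 7.63, 7.04 and 20.8% IL-4+R848 cells and had 6, 7 and 6 markers raised. The name thus rests on fewer markers for most IL-4+R848 cells, and the part of this in the calls was not tested. With clusters drawn without the genes called between treatments, 5 members passed.

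**Figure D4:**
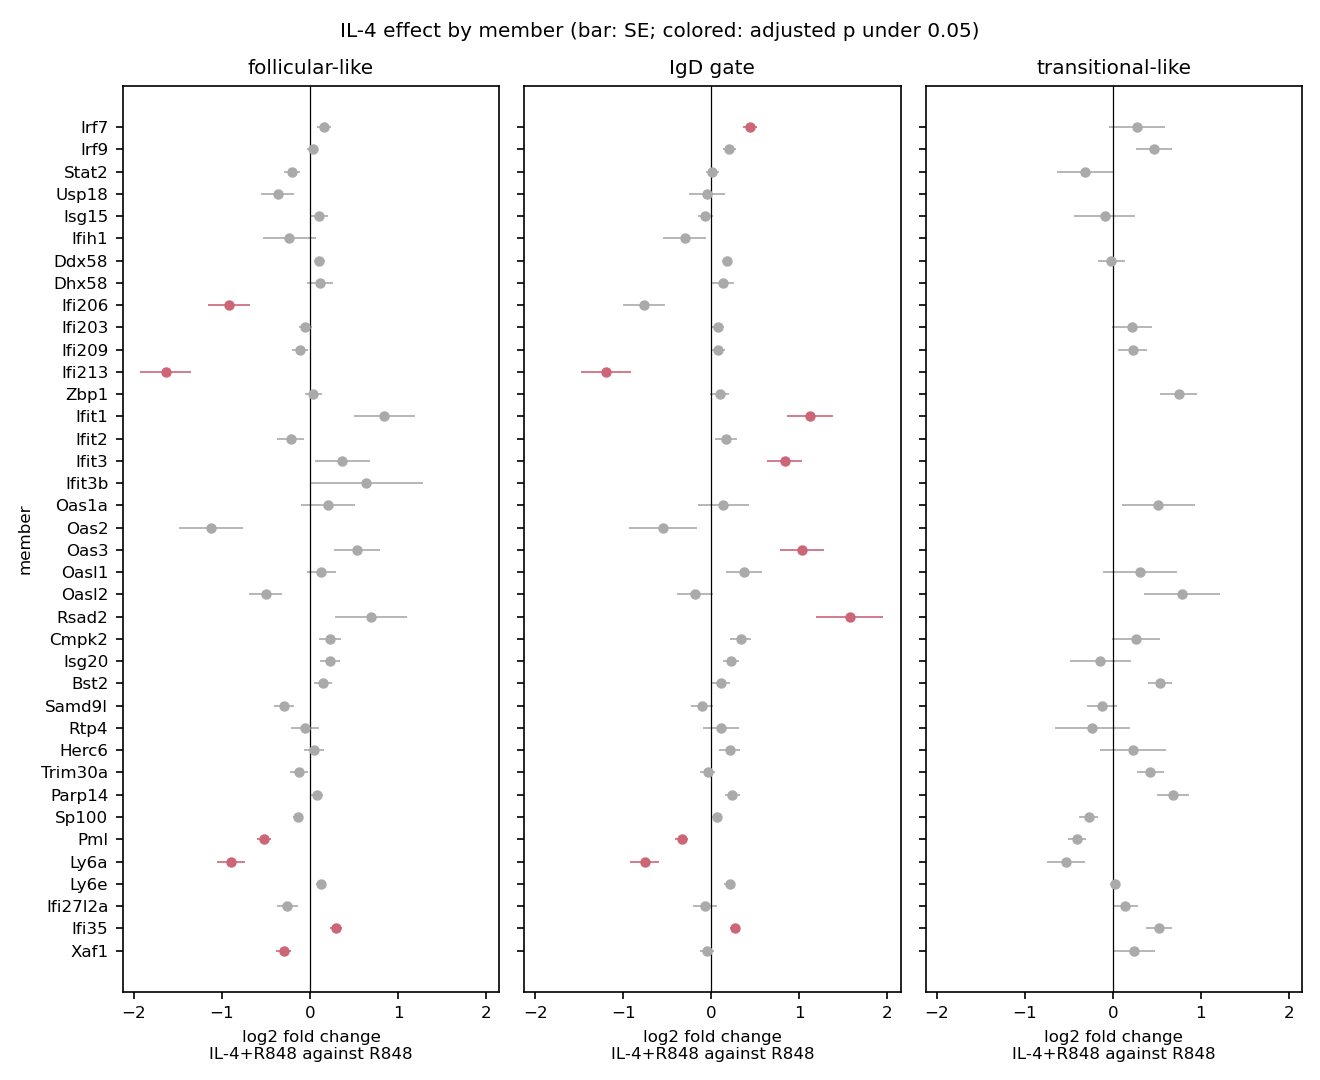
Log2 fold change of IL-4+R848 against R848 for each tested member (points, bars are SE) in follicular-like cells, the IgD gate and transitional-like cells, with members past the adjusted p threshold colored and the others grey. Colored points lie on both sides of 0 in the first panels, with Ly6a, Pml and Ifi213 below 0 and Ifi35 above 0 in both, and transitional-like cells have none.

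**Figure D5:**
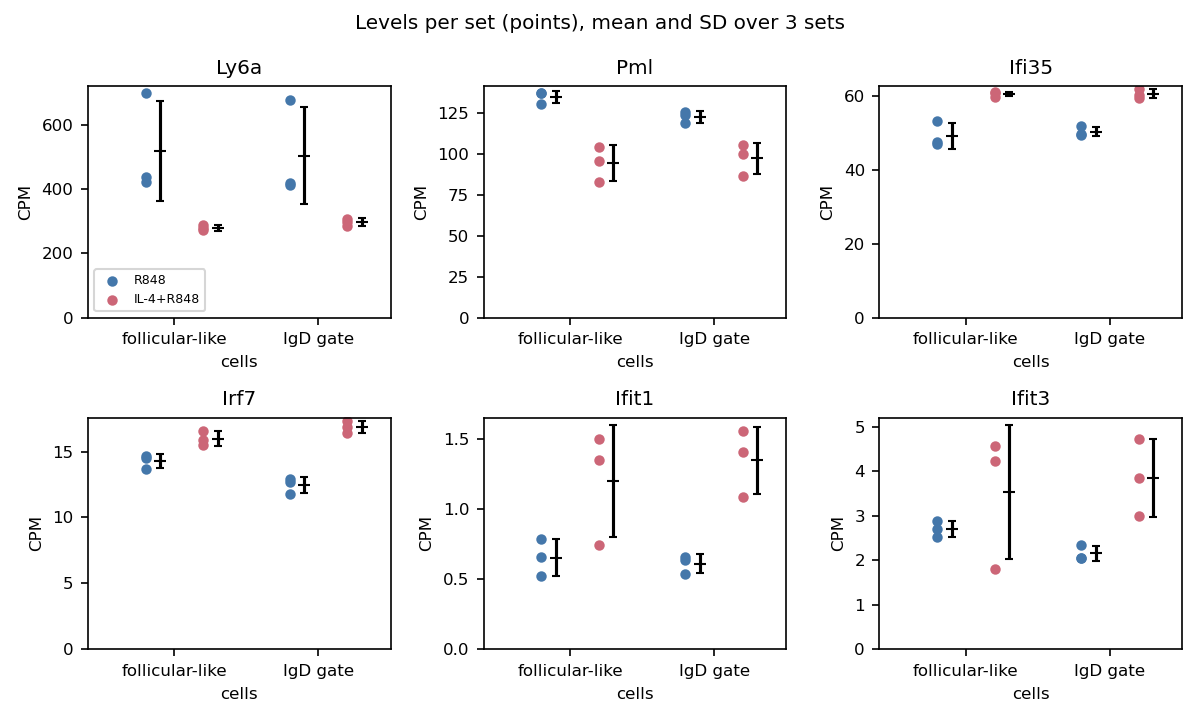
Level of 6 members (CPM from 0, 1 point per set, with mean and SD) in follicular-like cells and the IgD gate for R848 (blue) and IL-4+R848 (red). Ly6a and Pml are lower and Ifi35 higher with IL-4+R848 in both groups of cells, and set 2 is the lowest of the IL-4+R848 points for Ifit1 and Ifit3.

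The counts of the pathway lists stand beside the shares of all genes tested. In follicular-like cells 8.11% of all genes rose and 7.65% fell, and in the IgD gate 6.73% rose and 5.44% fell. In follicular-like cells, 3 of 17 tested interferon, receptor and signalling genes rose and 7 fell with IL-4+R848. Socs1, an inhibitor of JAK kinases, had 12.9, 19.6 and 23.8 CPM with R848 and 41.7, 51.8 and 46.5 CPM with IL-4+R848 (log2 fold change 1.31). Its relative Socs3 had 23.0, 33.9 and 40.5 CPM with R848 and 11, 6.99 and 7.72 CPM with IL-4+R848 (-1.93). These inhibitors thus moved in opposite directions without overlap. The receptor chain gene Ifngr2 rose by 0.51 and the kinase gene Jak2 by 0.53, while Ifngr1 fell by 0.35 and Jak1 by 0.33. Of 20 sensing and induction genes, the kinase genes Ikbke (0.73) and Irak1 (0.22) rose and the transcription factor gene Irf4 fell by 0.71. Of 60 other interferon-stimulated genes, 5 rose and 8 fell. Slfn5, a helicase-like gene of the Schlafen family, had 12.6, 13.3 and 19.6 CPM with R848 and 42.0, 48.0 and 45.8 CPM with IL-4+R848 (1.57). Ly6c2, a surface protein of the Ly6 family, fell by 2.30, Ifit1bl1 by 1.59, Ifi208 by 0.95, Ube2l6, the conjugating enzyme for ISG15, by 0.61 and Shisa5 by 0.25. In the IgD gate, 3 of 17 receptor and signalling genes rose (Socs1 1.26, Jak2 0.63 and Ifngr2 0.58) and 2 fell (Socs3 -1.57 and Ifngr1 -0.28). Of 21 sensing genes, Traf3 and Tbk1 rose by 0.26 each and Irf4 (-0.84) and Tlr3 (-1.41) fell. Of 61 other interferon-stimulated genes 8 rose, Slfn5 by 1.92 among them, and 2 fell.

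No member passed the edgeR test in the 6 other states. Of all genes tested, 1.26% passed in activated-like cells (24 members tested), 1.31% in cycling-like (25), 0.285% in germinal center-like (26), 1.33% in marginal zone-like (28), 0% in plasmablast-like (25) and 1.11% in transitional-like cells (26). At an unadjusted p under 0.05 there were 2, 3, 5, 4, 3 and 9 members in the same order. The share of all genes at that threshold is not given here, so these counts are not read as a result about the members. DESeq2 called 1 member in germinal center-like cells and 0 in each of the others. These states hold fewer cells, from 308 cycling-like to 2361 transitional-like cells per treatment. Summed over all cells, 7 of 39 members rose and none fell, beside 5.53% and 4.01% of all genes. They were Oas3 (1.14), Cmpk2 (0.42), Parp14 (0.31), Ifi35 (0.29), Ifi203 (0.27), Irf9 (0.27) and Ddx58 (0.27). The share of each state moves with treatment in that sum, and leaving out any set left 0 or 1 of these calls. With the set as a block, 4 members passed over all cells and 1 in germinal center-like cells.

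The difference of the IL-4 effect from that in follicular-like cells was tested for 33 members in 6 other states, 198 pairs in all, and 3 pairs passed. Of all genes, 2.04% passed in germinal center-like, 1.53% in plasmablast-like, 0.37% in transitional-like, 0.324% in marginal zone-like, 0.13% in cycling-like and 0.0556% in activated-like cells. In germinal center-like cells Pml had 5.89, 10.9 and 7.82 CPM with R848 and 17.9, 15.4 and 10.6 CPM with IL-4+R848, while it was lower with IL-4+R848 in follicular-like cells. The effects differed by 1.37 ± 0.24 on the log2 scale (edgeR, Benjamini-Hochberg adjusted p = 6.84e-04). Ifi203 in germinal center-like cells had 2.56, 4.77 and 3.72 CPM with R848 and 8.96, 11.3 and 6.77 CPM with IL-4+R848, a difference in effect of 1.33 ± 0.31 (edgeR, Benjamini-Hochberg adjusted p = 0.0122). The Ifi203 sets of the treatments did not overlap, those of Pml did by a small margin, and neither gene passed the test within germinal center-like cells. Ly6a in plasmablast-like cells had 1460, 1422 and 1747 CPM with R848 and 1922, 2084 and 1928 CPM with IL-4+R848. Its effect differed from that in follicular-like cells by 1.25 ± 0.31 (edgeR, Benjamini-Hochberg adjusted p = 0.0239), and within plasmablast-like cells it did not pass although the sets did not overlap. No pair passed without set 1, when the Pml value was 1.03, and 1 pair passed without set 2 or without set 3.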

How the data were processed

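RNA and 14 antibody tags were counted in single spleen B cells of 3 sets. The values are raw UMI counts, deposited by the authors with no normalization recorded. Per the submitters' processing notes, Cell Ranger 6.0.1, Seurat 4.1.3 and mm10 were used. Treatment was read from the hashtag names. A cell needed at least 64 UMIs of a hashtag and 4 times the other plus 1, at least 500 genes and under 10% mitochondrial UMIs. Barcodes with both hashtags (1559, 940 and 1309) were removed, so doublets within a treatment remain. Pairs of sets shared 230, 289 and 219 barcodes among all barcodes, counted before these filters.

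Cells were clustered without the members by the Leiden method (resolution 1, seed 1, 15 neighbours, 30 principal components of 2000 variable genes), and clusters were named by marker genes. The way clusters were drawn was changed after the data were seen, so that it gives the same result on each run. The members, lists and tests were chosen with earlier results of these data known. Counts were summed per set and treatment (at least 50 cells) and compared by the quasi-likelihood test of edgeR 4.0.16 after filterByExpr and TMM scaling (R 4.3.3, limma 3.58.1). P-values were adjusted by Benjamini-Hochberg over all genes tested. Interactions were tested in a single edgeR fit. On follicular-like counts simulated with known changes in 11238 genes, 39 of 50 changes of 1.5-fold and 48 of 50 of 2-fold were called, with 14 false calls. Shares of cells were compared by exact permutation tests.

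Cells of a set share a library, which may pair the treatments. In follicular-like cells the deviations from the group means were correlated within sets 1 to 3 (0.464, 0.372 and 0.341) and at most -0.0934 across sets, so these sums are paired. The main test between treatments in these cells did not use this pairing, and the counts with the set as a block are given beside it.

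The rule for named genes took the 6 genes of the cell rule, members called between treatments, the 5 highest and 5 lowest members in R848 follicular-like cells, up to 6 called genes per pathway list and 10 genes outside the lists by ratio. Other members are named as examples chosen after their values were seen. Alternatives were the block, DESeq2 1.42.0, no count filter, leaving out a set, other cell filters, other clusterings, another random start, stricter gates and other scaling. All-gene shares beside counts of members, the comparison of the cluster within treatments and state counts with total scaling were added after the data were seen. Other software was scanpy 1.11.5, leidenalg 0.10.2, SciPy 1.17.1, pandas 2.3.3, NumPy 2.4.6, matplotlib 3.10.9 and Python 3.11.15.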

Additional observations from a re-analysis of the deposited data

Results flagged for a closer look

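The IL-4 effect on 3 members differed between states by the interaction test in edgeR, with Benjamini-Hochberg adjustment. For Pml it was higher in germinal center-like than in follicular-like cells by 1.3736 on the log2 scale, and for Ifi203 by 1.3318. For Ly6a it was higher in plasmablast-like than in follicular-like cells by 1.2538. The Pml call was lost without set 1, and the Ifi203 and Ly6a calls were lost without any single set.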

How the results depend on the processing

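With the set as a replicate block, 10 members passed in follicular-like cells (2 rose, 8 fell) compared with 6 without it, 1 passed in germinal center-like cells compared with 0, and 4 compared with 7 over all cells. In the IgD gate 10 passed with the block compared with 9. Sums of a set share a library in every state, but outside follicular-like cells their deviations did not all correlate above 0.1. Without a filter on low counts, 10 members passed in follicular-like, 4 in transitional-like, 3 in germinal center-like, 1 in activated-like and 1 in cycling-like cells. With clusters drawn without genes called between treatments, 4 passed in activated-like and 3 in transitional-like cells. DESeq2 called 1 in germinal center-like cells. The cause of these differences was not tested. The shares of all genes under the alternatives of this paragraph are not given here, so its counts are not read as results about the members.

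When 1 set was left out, the members called ranged from 3 to 7 in follicular-like cells (829 to 1254 of all genes compared with 1771), from 0 to 7 in the IgD gate (475 to 1093 compared with 1419) and from 0 to 1 over all cells. The pairs called in the interaction test ranged from 0 to 1, and 4 passed with the block. The Xaf1 value turned to 0.1783 over all assigned cells. With total-count scaling, Irf7 and Ifi27l2a in the IL-4+R848 gates turned to -0.0561 and -0.1985, where all genes shifted by their median of -0.79. Between gates, the counts of members called stayed within 1.5 times of those reported under every alternative run. Another random start of the clustering gave 6 members in follicular-like cells. Low depth limits members with few UMIs per sum, among them Ifit1, Ifit3b, Rsad2, Ifi44, Oas2, Oas3 and Ifi213.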
